A study of Homo sapiens with 3 samples.

Results

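The transcriptome described here is the baseline of the series: SCD1-WT HCT-116 cells, the parental line with its stearoyl-CoA desaturase gene intact, exposed to the solvent DMSO for 24 h. It was read from 1 array, the sample labelled as wild type with DMSO, of 3 arrays in the series. The other 2 arrays held SCD1-WT HCT-116 cells given an SCD1 inhibitor for 24 h and SCD1-KO HCT-116 cells, for which the labels give no treatment time. The inhibitor-treated cells share the parental line and the culture medium with the DMSO cells. Values are absolute signals of the DMSO array, with no ratio to the other 2, whose own values are named as such in the few places they appear. Genes were those named alone by a probe set, 19775 in all, and each took the signal of its brightest probe set.

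HCT-116 is an established line grown from a human colorectal carcinoma. Healthy colonic epithelium renews from stem cells at the base of the crypt, whose offspring become absorptive colonocytes, mucus-producing goblet cells or hormone-producing cells. SCD1, encoded by SCD, puts the double bond into saturated fatty acyl chains and so makes the monounsaturated fatty acids of membranes and stored fat. The study used these cells to follow energy sensing by AMPK, growth control by mTOR, and autophagy when SCD1 is blocked or absent, and the DMSO array gives the line with SCD1 present and not inhibited.

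Each signal is a MAS5 value, a linear brightness in arbitrary units in which the matching and mismatching probes of a set are combined. Because probes differ in how well they bind, a signal is not an amount of mRNA, and genes are therefore placed in bands rather than compared by fold. The background level was taken from 82 olfactory receptor genes, which serve smell in the nose, as the 95th percentile of their signals, 96.4. Genes at or under that level are called near background. Genes above it are called low up to a signal of 941, the median of all genes above the level, intermediate up to 3292, and in the top 10% or top 1% of all genes beyond 3292 or 17181. With 1 array there is no replicate, so no difference between genes carries a test.

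Of all genes, 58% (11468) gave a signal above the background level and 42% (8307) were near background. Counts of family members above background in later paragraphs are to be read beside this 58%. By definition 10% (1978 genes) lay in the top 10%, and 1% (198 genes) in the top 1%. The low band held 5734 genes and the intermediate band 3756. The signals ran from 0.3 to 51894 over the probe sets, and the middle gene stood at 199.9. The distribution had 2 humps, one under the background level, where the olfactory receptor genes also lay with a median of 36.2, and one across the low and intermediate bands. Protein-coding genes were above background in 65.8% of 16516 cases, against 15.6% of 2656 long non-coding RNA genes, 31.4% of 423 transcribed pseudogenes and 27.1% of 70 other pseudogenes.

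**Figure D1:**
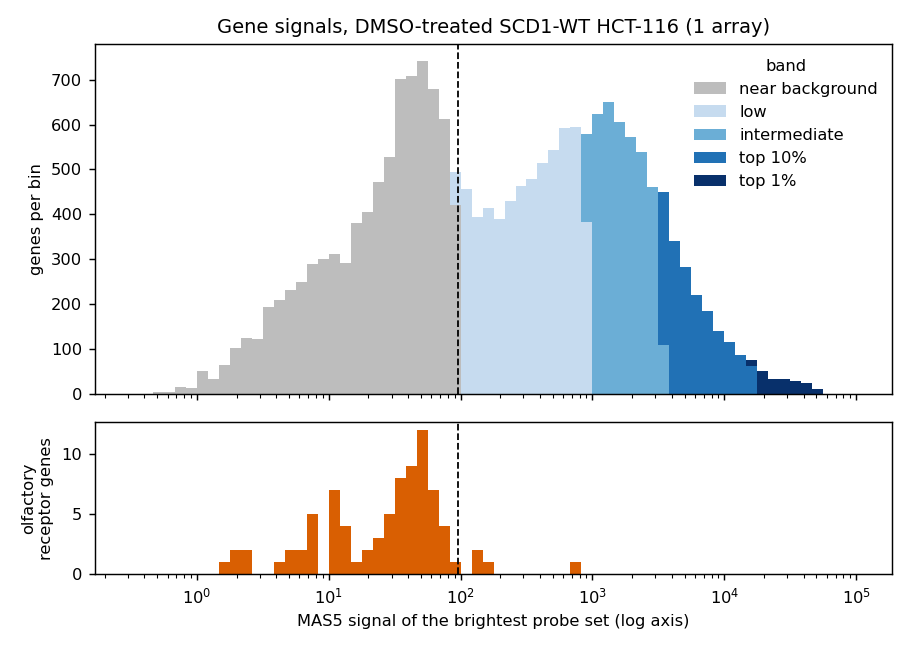
Histograms of the MAS5 signal of the brightest probe set (log axis, arbitrary units) for the genes of the DMSO-treated SCD1-WT array, coloured by band (top; 19740 genes, leaving out 35 genes whose levels are not shown), and for the 82 olfactory receptor genes alone (bottom). The dashed line is the background level of 96.4, and all but 5 olfactory receptor genes lie at or under it.

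The RNA-quality and spread measures bear on how far a band can be read. The 3′ to 5′ ratio of the control probe sets was 1.302 for ACTB and 0.969 for GAPDH, and probe sets for a bacterial transcript read between 1.4 and 27.2. Among 10523 genes with several probe sets, the median gap between the brightest and the dimmest set was 3.09 on the log2 scale. Of the 7658 such genes called above background, 57.8% also had a set near background. A gene with 1 probe set was above background in 41.2% of 9252 cases, and a gene with 4 or more sets in 83.6% of 2728. On the array of inhibitor-treated cells, with its own background level, 95.2% of the genes above background here were above it again and 96.7% of those near background were near it. On the SCD1-KO array the shares were 96.1% and 93.7%.

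The brightest genes were mostly those of protein synthesis. Of the 25 highest genes, with signals from 40853 to 51894, 19 encode cytosolic ribosomal proteins. Those were RPS6 at 49847, RPL7, RPS23, RPS16, RPS19, RPL37A, RPS10, RPL31, RPS12, RPL41, RPL10A, RPLP1, RPS4X, RPL8, RPS21, RPL30, RPL39, RPL9 and RPS14. The highest of all was COX2, here the mitochondrially encoded subunit of cytochrome c oxidase and not the prostaglandin synthase. It was followed by EEF1A1, which delivers aminoacyl-tRNA to the ribosome, at 51150.5. TPT1, a tumour protein whose mRNA carries a 5′ terminal oligopyrimidine tract as ribosomal protein mRNAs do, reached 49476. TMSB10, which binds actin monomers, read 43734, and UBB, a polyubiquitin precursor, closed the list. HUWE1, a ubiquitin ligase, stood among them at 45960.1 through a single probe set, while its 4 other sets read 2989, 90.6, 12.6 and 2.8. Of these 25 genes, RPS6, HUWE1, RPS12, RPLP1 and RPS14 had probe sets on both sides of the background level.

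Measured members of the large protein machines were almost all above background, against 58% of all genes. Members without a probe set named for 1 gene have no value and are not counted. Above background were 54 of 57 measured cytosolic ribosomal proteins, 50 of them in the top 1%. So were 75 of 75 measured mitochondrial ribosomal proteins and 32 of 34 measured proteasome subunits. The ribosomal genes near background were RPL36A (93), RPL3L (24.8) and RPL39L (9.2), the second of which is a muscle form and the third a testis form. Among mitochondrial ribosomal proteins MRPL3 (12233), MRPL57 (7858) and MRPL51 (6998) were brightest. The proteasome was led by PSMB1 (20233), PSMB4 (12914) and PSMB3 (11042), and its immune form was read at lower bands. PSMB8, an interferon-inducible catalytic subunit, was near background at 3, and PSMB9 and PSMB10 were low at 688 and 654. Translation elongation factors EEF2 (38805) and EEF1D (20325) were in the top 1%, and EEF1A2, the form typical of muscle and nerve, was intermediate at 2183. PSMB1 had probe sets on both sides of the background level.

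The labelled tissue, colon, was checked against marker genes. Epithelial structure was clear and colonic identity was sparse. KRT19, KRT18 and KRT8, the keratins of simple epithelia, read 25313, 23407 and 12259, and the adhesion proteins EPCAM and E-cadherin (CDH1) read 16859 and 5038. All 5 were in the top 10% or above, as was the epithelial transcription factor ELF3 at 3334. KLF5, active in crypt cells, was intermediate at 972, and KRT20, a keratin of differentiated intestinal cells, stood at 99.9, just over the background level. The remaining 11 of 19 colonic epithelial markers were near background. CDX2 and CDX1, the homeobox factors that set intestinal identity, read 59.6 and 20.9. Also near background were GPA33 at 29.1, CDH17 at 4.6, VIL1 at 73.9, LGALS4 at 79.3, MUC13 at 45.1 and TSPAN8 at 5.4, other intestinal epithelial markers. CEACAM5, the carcinoembryonic antigen of the clinic, read 58.3, CEACAM6 read 10.3 and the colonic gene PHGR1 read 51.5. Markers of simple epithelium were thus bright, while the defining intestinal markers were near background. In a bulk sample, fewer cells of a type and less RNA per cell cannot be told apart.

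Markers of mature absorptive and secretory cell types of the intestine were nearly all near background. These lists are not confined to colonic genes, and also hold genes of the small intestine such as SI and DEFA6. Of 17 absorptive markers 1 was above, CA2 (carbonic anhydrase) at 1740, and the brush-border sucrase SI gave 0.9, among the lowest signals of the array. Of 18 goblet and secretory markers 1 was above, the secretory factor SPDEF at 106, with TFF3 at 89.7, FCGBP at 86.9 and the Paneth defensin DEFA6 at 7.6 near background. MUC2, the main mucin of colonic mucus, read 13. Of 10 stem and progenitor markers 5 were above: CD44, a surface receptor of proliferating crypt cells, at 15343, the crypt factor SOX9 at 8067, PROM1 (CD133) at 1726, the Wnt target AXIN2 at 973 and LRIG1 at 313. The other 5, among them the crypt-base stem cell genes LGR5 (19.8), ASCL2 (44) and OLFM4 (4.8), were near background. The 4 epithelial and intestinal lists together had 15 of 64 genes above background, or 23.4% against 58% of all genes. SPDEF, CD44, AXIN2 and LRIG1 had probe sets on both sides of the background level.

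Markers of cell types that a pure culture should not hold had 17 of 78 genes above background, or 21.8%. The share was 58% for all genes and 23.4% for the 4 epithelial and intestinal lists together. Erythroid markers were near background in 5 of 5 cases, with ALAS2 at 30.4 and AHSP at 89.2. Leukocyte markers were near background in 11 of 13, with PTPRC (CD45) at 24.5 and CD14 at 2.4, and CD79A and CD3E at 300.4 and 106 above. Endothelial markers were near background in 7 of 8, with PECAM1 at 249 the exception and KDR at 1.2. Fibroblast and mesenchymal markers were near background in 11 of 17. The highest of these were the collagen chain COL1A1 at 1128, fibronectin FN1 at 552, ACTA2 at 529.7, and vimentin (VIM) at 463, and FAP, a fibroblast surface protease, read 4.1. Liver markers were near background in 6 of 8, with SERPINA1 at 271 and CYP3A4 at 133.4 above and albumin (ALB) at 37.8. Neuronal and glial markers were above in 5 of 10. TUBB3, the neuronal beta tubulin, was the marker of a non-epithelial type that reached the top 10%, at 7149, followed by MBP at 1276 and GAD1 at 550.1, with GFAP at 15.7. Of 17 sensory, germ cell and muscle markers 1 was above, myoglobin (MB) at 125, and MYH1 read 1. CD79A, PECAM1, COL1A1, FN1, ACTA2, VIM, SERPINA1, CYP3A4 and MBP had probe sets on both sides of the background level.

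**Figure D2:**
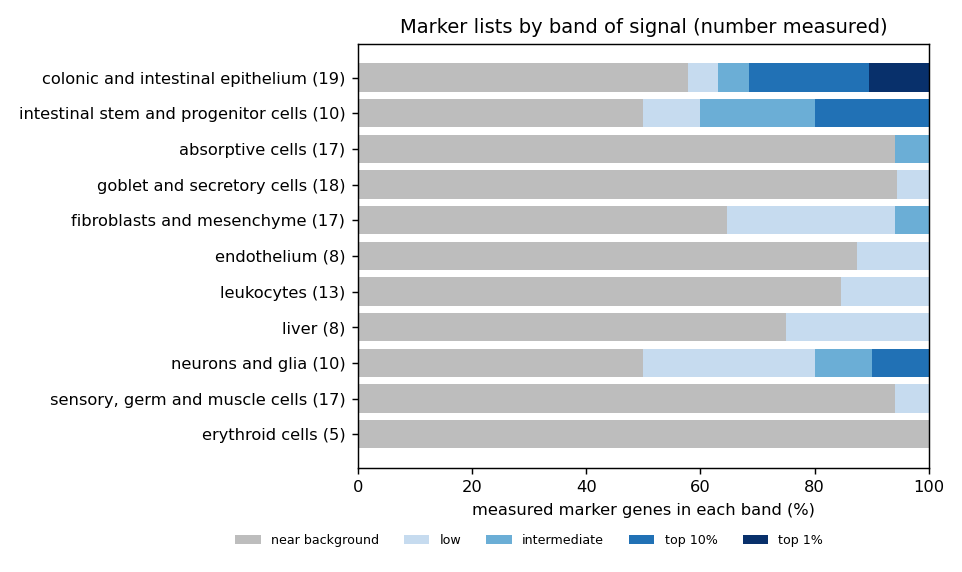
Percentage of the measured genes of each marker list in each signal band on the DMSO-treated SCD1-WT array, 1 bar per list (number measured in brackets). The colonic epithelium list holds 6 of 19 genes in the top 10% or above, and the absorptive and goblet lists have 16 of 17 and 17 of 18 genes near background.

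Families of epithelial structure differed in how many members had signal, against 58% of all genes. Of 44 keratins 9 were above background, led by KRT19, KRT18, KRT8 and KRT10 (3748), and the hair keratin KRT36 read 2.5. Of 17 mucins 2 were above, MUC3A at 317 and MUC1 at 222, with MUC4 at 82.8 and MUC16 at 2.8. Of 9 CEACAM proteins 2 were above, CEACAM19 at 212 and CEACAM3 at 108, with CEACAM1 at 90.4 and CEACAM8 at 8.8. Claudins, which seal tight junctions, were above in 10 of 20, with CLDN7 at 5580.1, CLDN12 at 3176 and CLDN4 at 2854, and CLDN5, the form of blood vessels, at 7. Among 21 cadherins 6 were above, and P-cadherin CDH3 (4400.4) stood beside CDH1 in the top 10%, ahead of CDH15 at 154 and with CDH9 at 2.7. Gap junction proteins were above in 5 of 13, led by GJC1 at 3847, GJB2 at 2159.8 and GJA3 at 1385, with GJB6 at 1.7. Integrin chains were above in 13 of 25, with ITGB1, the shared beta chain, at 19874, ITGAV at 5344 and ITGA2, a collagen receptor chain, at 3602, and the leukocyte chain ITGB7 at 15.2. MUC3A, MUC1, CEACAM3, CLDN4, CDH15, GJA3 and ITGB1 had probe sets on both sides of the background level.

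Cytoskeletal and calcium-binding families held many bright genes. ACTB read 28636, while the smooth muscle actin ACTA2 was low, the cardiac actin ACTC1 was at 101, and ACTG2 (58.6) and ACTA1 (36.4) were near background. Alpha tubulins TUBA1B, TUBA1C and TUBA1A read 28450.5, 23075 and 7884, with TUBA4A at 1499 and TUBA8 and TUBA4B at 30.8 and 14.6. Of 9 beta tubulins 6 were above, TUBB (14003) and TUBB4B (8072) ahead of TUBB3, and TUBB7P at 10.1. Tropomyosins TPM2, TPM1 and TPM4 read 8420, 1386 and 1011. S100 proteins divided sharply, with 9 of 19 above and 6 in the top 10% or above, led by S100A6 (38303), S100A4 (22729.6) and S100A10 (8466), against S100Z at 2.9. Annexins, which bind membranes in calcium, were above in 10 of 11, led by ANXA2 (27731), ANXA1 (17909) and ANXA5 (11598), and ANXA13, an intestinal annexin, was near background at 4.6. TUBA1B, TPM2, TPM1, TPM4, S100A10 and ANXA2 had probe sets on both sides of the background level.

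Homeobox clusters record position along the body axis and differed from one another. For all genes the share above background was 58%. HOXB genes were above background in 9 of 10, led by HOXB7 (4121), HOXB8 (1728) and HOXB3 (1384), with HOXB1 at 15.1. HOXC genes were above in 5 of 9, with HOXC6 at 1402, HOXC9 at 274, HOXC4 at 192 and HOXC5 at 12.8. HOXD genes were above in 1 of 8, HOXD8 at 399.5, with HOXD1 at 86.8, HOXD9 at 58.1 and HOXD12 at 1.4. Of the HOXA cluster the list held HOXA2 alone, at 8.6. Of 10 measured FOXA, GATA and HNF factors, which act in the endoderm and other tissues, 5 were above background, and none was beyond the low band. FOXA1 and FOXA2 read 78.5 and 20.4, FOXA3 read 397 and HNF4G read 152. GATA2, GATA6 and GATA3 were low at 648, 598 and 287, and GATA1, GATA4 and GATA5 near background at 69.4, 51.7 and 19.6. SOX factors were above in 6 of 19, with SOX4 at 12174 ahead of SOX9, SOX8 at 526 and SOX3 at 2.6. KLF factors were above in 13 of 17, led by KLF10 (7090.3), KLF6 (4523) and KLF4 (3449), with KLF17 at 10.1. Of the factors that drive epithelial cells towards a mesenchymal state 3 of 7 were above and none beyond the low band, TWIST1 at 395, ZEB1 at 384 and SNAI3 at 104, with SNAI1 at 16.7. HOXB3, HNF4G, GATA6, GATA3, SOX4 and ZEB1 had probe sets on both sides of the background level.

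SCD, the gene of the study, was itself among the brightest. It read 23841, rank 110 of all genes and in the top 1%, and all of its 4 probe sets were above background, the other 3 at 3654, 984 and 834. SCD5, the second human stearoyl-CoA desaturase, was intermediate at 2821 through 1 probe set, and its 3 other sets read 99.1, 89.4 and 31.4. Thus the DMSO-treated line had signal for both desaturases, and the span between probe sets was wide for each.

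The 250 bases before the SCD start site, at chr10:100346983-100347232 on the plus strand of GRCh38.p14, are shown because SCD is the target in the other 2 samples. They are RefSeq sequence, printed 5′ to 3′ with CG dinucleotides, the sites of DNA methylation, in capitals, and hold 23 of them.
SCD: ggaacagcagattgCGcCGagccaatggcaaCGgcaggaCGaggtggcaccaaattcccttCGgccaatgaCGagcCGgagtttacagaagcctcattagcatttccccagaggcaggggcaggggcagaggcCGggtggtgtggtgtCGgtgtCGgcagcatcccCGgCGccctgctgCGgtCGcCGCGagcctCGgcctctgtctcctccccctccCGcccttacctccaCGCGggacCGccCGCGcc

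Fatty acid synthesis enzymes around SCD ran from near background to the top 10%. ACLY, which supplies the acetyl-CoA, was in the top 10% at 10090.4. ACACA, the acetyl-CoA carboxylase of lipogenesis, was intermediate at 2999.7, with its dimmest set at 277, and the mitochondrial form ACACB was low at 296. FASN, which builds palmitate, read 941, at the edge between low and intermediate, and its second set read 40.1. Elongases ELOVL5, ELOVL6 and ELOVL7 read 7095, 2580.3 and 2042, ELOVL3 was low at 241, and ELOVL2 (24) and ELOVL4 (13.9), which make very long polyunsaturated chains, were near background. The front-end desaturase FADS2 was low at 138 and FADS3 intermediate at 1033. Of the SREBP factors that switch lipid genes on, SREBF1 read 1678 and SREBF2 489. The nuclear receptors PPARD, PPARA, PPARG and NR1H3 read 1706, 735, 639.8 and 513. ACACB, FASN, ELOVL5, FADS2, PPARD and PPARA had probe sets on both sides of the background level.

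Of the genes that activate, carry, burn or store fatty acids, ACSL5, FABP5 and PLIN3 were in the top 10%. ACSL5, the intestinal acyl-CoA synthetase, read 6319, ACSL1 and ACSL4 were low at 905 and 822, and ACSL6 was near background at 69.4. FABP5, the epidermal fatty acid binding protein, read 14578, and FABP6 386, while 5 of 7 binding proteins were near background, with FABP7 at 55.9 and the intestinal FABP2 at 4. CPT1A, the gate of fatty acid entry into mitochondria, read 2069, CPT2 776 and the brain form CPT1C 430.5. For storage, DGAT1 and SOAT1 were intermediate at 1401 and 1342, DGAT2 was low at 264 and SOAT2 near background at 34.3. Of the perilipins that coat lipid droplets, PLIN3 read 5956, PLIN2 read 1312 and PLIN5 159.6, and the fat cell forms PLIN1 and PLIN4 were near background at 14.5 and 9. ACSL4, FABP6, CPT1A and PLIN5 had probe sets on both sides of the background level.

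Glycolysis had a gene in the top 10% or above at each step listed except pyruvate kinase. HK2 was in the top 10% at 5163, HK1 read 1919, HKDC1 132 and HK3 5.4. PFKP and PFKM read 9892 and 6508, and the liver form PFKL was low at 852. ALDOA read 26619.7 and ALDOC 5269.7. GAPDH stood at 37864 and its sperm paralog GAPDHS at 13.8. PGK1 read 27466 and the testis form PGK2 100.1, low by a small margin over background. PGAM1 read 17516, the muscle form PGAM2 68.9, and PGAM5, a protein phosphatase named with them and not a step of glycolysis, 678. ENO1 read 35654, the neuronal ENO2 was intermediate at 3138 and the muscle ENO3 low at 298. PKM was intermediate at 2872, and PKLR, the liver and red cell pyruvate kinase, near background at 12. LDHA and LDHB were both in the top 1% at 36041 and 31097, and the testis form LDHC was near background at 80.4. HK2, HKDC1, PFKP, PGK1, PGAM5 and ENO3 had probe sets on both sides of the background level.

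The glucose transporters, monocarboxylate transporters and pyruvate dehydrogenase kinases listed had no measured member in the top 10%. Facilitative glucose transporters were above background in 9 of 12, led by SLC2A1 (2728), SLC2A3 (1454) and SLC2A13 (1029.8), with SLC2A10 at 3.3. Of the 4 monocarboxylate transporters listed, 2 had a value, SLC16A7 at 275 and the retinal SLC16A8 at 6.5. The kinases that hold pyruvate back from the mitochondrion, PDK1, PDK3, PDK2 and PDK4, read 2235, 1890, 419 and 313. SLC2A13, SLC16A7, PDK1, PDK3 and PDK4 had probe sets on both sides of the background level.

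**Figure D3:**
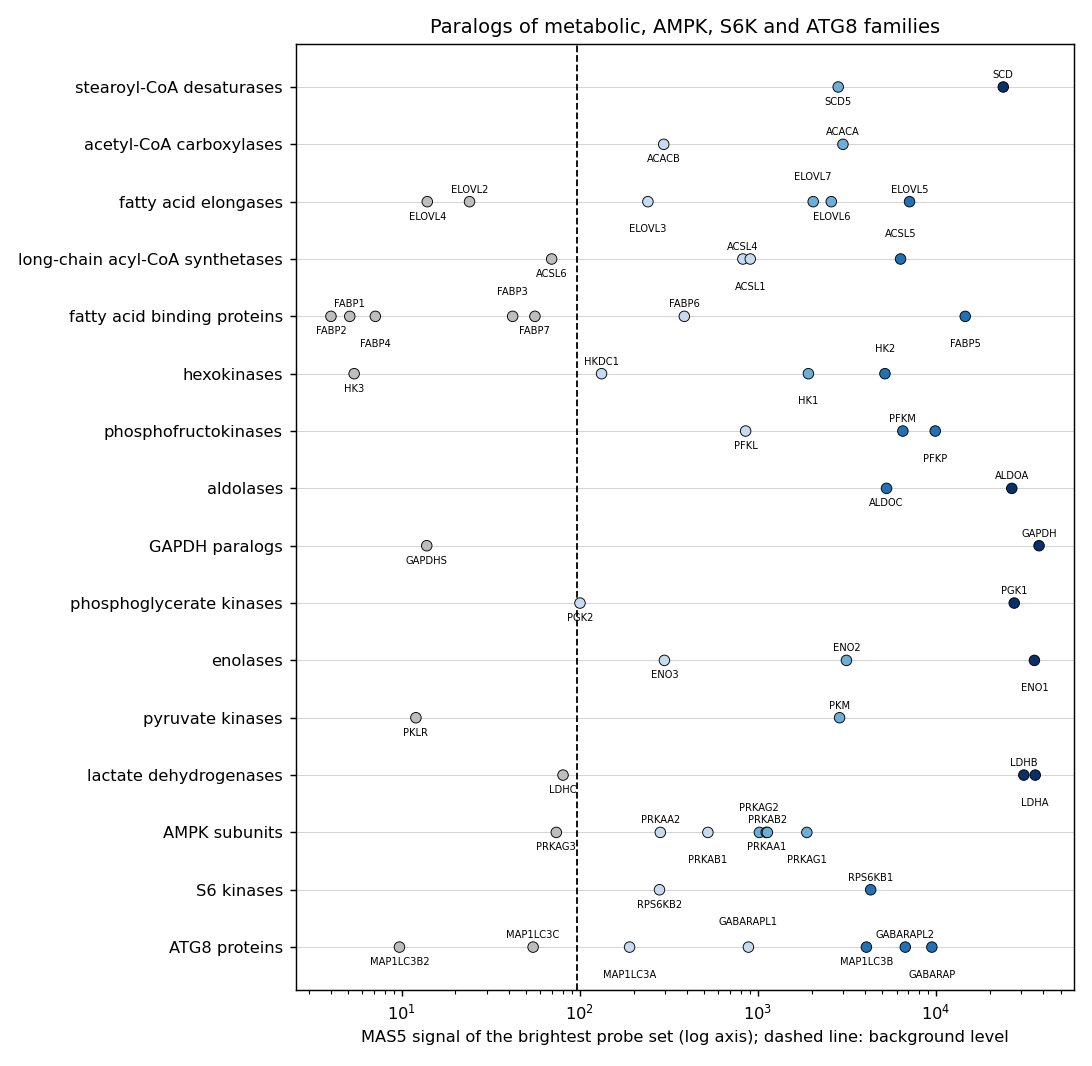
MAS5 signal of the brightest probe set (log axis, arbitrary units) of each measured paralog in 16 families of lipid and glucose metabolism, AMPK, S6 kinases and ATG8 proteins on the DMSO-treated SCD1-WT array, 1 point per gene, coloured by band from grey (near background) to dark blue (top 1%). The dashed line is the background level, and LDHC, GAPDHS and PKLR lie under it while LDHA, LDHB and GAPDH lie in the top 1%.

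The energy sensor AMPK is a trimer of a catalytic alpha, a scaffold beta and a nucleotide-binding gamma subunit. Of its 7 subunits 6 were above background and none reached the top 10%. The catalytic PRKAA1 was intermediate at 1113, with its other sets at 311, 169, 67.4 and 3.8, and PRKAA2 was low at 283, with its others at 163, 120, 91.4 and 34.2. Beta subunits PRKAB2 and PRKAB1 read 1129 and 523. Gamma subunits PRKAG1 and PRKAG2 read 1880.5 and 1018, and PRKAG3, the muscle form, was near background at 73.7. A full trimer thus had signal, with both alpha chains under the top 10%. PRKAA1, PRKAA2, PRKAB2 and PRKAG2 had probe sets on both sides of the background level.

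The growth kinase MTOR was low at 383, and its second probe set read 3.3. MTOR and its partners were low in 7 of 8 cases and intermediate in 1. RPTOR, which defines complex 1, read 377, AKT1S1 367 and MLST8 591, while RICTOR, which defines complex 2, was intermediate at 2872, MAPKAP1 read 739, PRR5 479.9 and the inhibitor DEPTOR 766. Downstream, RPS6KB1, the S6 kinase, was in the top 10% at 4293, with its other sets at 2535 and 885, and RPS6KB2 was low at 279.8. Of the RSK kinases RPS6KA3 read 1544, RPS6KA1 664, RPS6KA2 445 and RPS6KA6 16.9. The related MSK kinases RPS6KA5 and RPS6KA4 read 817 and 339. RPS6 itself, the substrate of the S6 kinases, was the third gene of the array. MTOR, AKT1S1, RICTOR, DEPTOR, RPS6KA5, RPS6KA2 and RPS6KA4 had probe sets on both sides of the background level.

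Autophagy genes had signal from initiation to degradation. ULK3, ULK2 and ULK1, the starting kinases, were low at 598, 509 and 150.5, and ULK4 was near background at 62.6. The phosphoinositide-binding proteins WDR45B, WIPI2, WDR45 and WIPI1 read 6102, 2412, 1280.3 and 1274. ATG8 proteins, which are joined to the growing membrane, were above in 5 of 7, against 58% of all genes. GABARAP, GABARAPL2 and MAP1LC3B were in the top 10% at 9469, 6716 and 4062, with the second MAP1LC3B set at 3778. MAP1LC3A was low at 190.1, and MAP1LC3C and MAP1LC3B2 near background at 54.6 and 9.7. The ATG4 proteases that cut ATG8, ATG4B, ATG4C, ATG4D and ATG4A, read 1492, 554, 362 and 323. ULK2, WIPI2 and MAP1LC3A had probe sets on both sides of the background level.

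Autophagy receptors were above background in 8 of 8, and 5 were in the top 10%, against 10% of all genes. The mitochondrial receptors BNIP3 and BNIP3L read 9032 and 8016. The ubiquitin-binding SQSTM1 (p62) read 5398, with its other sets at 359, 242, 117 and 37.9, TAX1BP1 5336 and NBR1 4548. Lysosomal cathepsins were above in 10 of 15, or 66.7% against 58% of all genes. CTSB (7272), CTSZ (3959) and CTSA (2452) led them, and CTSW, of lymphocytes, read 10.9. SQSTM1 and NBR1 had probe sets on both sides of the background level.

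Growth factor and RAS signalling genes were in the low and intermediate bands, except ERBB4 and PIK3CG. ERBB3 and EGFR were intermediate at 2073 and 1504, ERBB2 was low at 702, and ERBB4, the form of heart and nerve, near background at 27.7. FGFR3, FGFR1, FGFR4 and FGFR2 read 1594, 1045, 999.2 and 650.1. Of the RAS GTPases named alone by a probe set, RRAS2 read 3005, RRAS 1573, HRAS 1423 and MRAS 656. The kinases below them, ARAF, MAP2K2, MAP2K1 and MAPK3, read 523, 3192, 2809 and 547. PIK3CB was intermediate at 2702, PIK3CD low at 673 and the leukocyte form PIK3CG near background at 36.8. AKT1 and AKT2 read 1123 and 660.3. ERBB3, EGFR, ERBB2, FGFR3, FGFR1, FGFR4, FGFR2, MAP2K2, PIK3CB, PIK3CD and AKT2 had probe sets on both sides of the background level.

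Wnt signalling, which maintains the crypt, had 2 of its transducers in the top 1% and most of its ligands near background. Beta-catenin (CTNNB1), at 17264, was the last gene of the top 1%, at rank 198, and its partner TCF7L2 read 18361, while TCF7L1 was low at 739.8 and LEF1 near background at 53.2. Beside 58% of all genes, Frizzled receptors were above in 7 of 9, led by FZD6 (4108), FZD7 (1520.3) and FZD5 (1143), with FZD10 at 1.6. Wnt ligands were above in 6 of 17. WNT16 stood apart at 4142, the next being WNT6 at 177 and WNT9A at 163, with WNT1 at 2.2. In the TGF-beta pathway the SMAD proteins were above in 8 of 8, with SMAD2 at 3447, SMAD5 at 2523 and SMAD4 at 2297. Its receptors were above in 8 of 9, TGFBR1 (3392), TGFBR2 (1992) and ACVR1B (1828) leading and BMPR1B at 51.5. NOTCH2 was in the top 10% at 3441, NOTCH1 and NOTCH3 low at 546 and 333, and NOTCH4, of vessels, near background at 37.4. TCF7L2, FZD5, WNT6, WNT9A, SMAD2, SMAD4, TGFBR1, TGFBR2, ACVR1B, NOTCH1 and NOTCH3 had probe sets on both sides of the background level.

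Cell cycle genes were above background with few exceptions, against 58% of all genes. Cyclins were above in 8 of 10, with CCND1 at 5978, CCNB1 at 4501 and CCNB2 at 4141. Of the D-type cyclins CCND1 was thus in the top 10%, CCND3 was intermediate at 1043 and CCND2 was near background at 52.1, as was the germ cell cyclin CCNA1 at 6.5. CDK1, CDK4 and CDK2 were in the top 10% at 8952, 6049.9 and 3379, and CDK6 was intermediate at 2442. Their inhibitors were above in 6 of 6, CDKN1A at 4163, CDKN1B at 3854, CDKN2A at 1787, CDKN1C at 1669.5, CDKN2B at 252 and CDKN2D at 210.4. The pocket proteins RBL2, RB1 and RBL1 read 2071, 1903 and 348, and E2F factors were above in 8 of 8, from E2F3 at 1627 to E2F1 at 167. The replicative helicase subunits MCM6, MCM3, MCM7, MCM2, MCM4 and MCM5 read 5546, 4234, 3892, 3288, 2450.5 and 1682. CCNB2, CCND3, CDK2, CDK6, CDKN2A, CDKN1C, CDKN2B, CDKN2D, RBL1 and MCM4 had probe sets on both sides of the background level.

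Genome maintenance and DNA methylation genes were uneven. Mismatch repair genes named alone by a probe set were MSH6 at 3245, PMS1 at 2632, MLH3 at 586, the meiotic MSH4 at 162 and MSH3 at 147. TP73, a p53 paralog, was low at 116. DNMT1, the maintenance methyltransferase, was in the top 10% at 3821, and the de novo enzymes DNMT3B and DNMT3A were low at 600.2 and 222. TET3 was intermediate at 1006, TET2 and TET1 low at 579 and 321, and DNMT3L, of germ cells, near background at 58.7. MSH6, PMS1, MSH3, TP73, DNMT3A, TET3 and TET2 had probe sets on both sides of the background level.

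Survival and stress genes held several of the bright signals. In the BCL2 family 13 of 15 were above, led by the anti-apoptotic MCL1 (8049) and the pro-apoptotic PMAIP1 (5779.9) and BIK (2742), while BCL2 itself was low at 102 and BCL2A1 near background at 22.6. Inhibitors of apoptosis BIRC2, BIRC5, XIAP and BIRC6 read 5106, 3775, 2609.8 and 2373, with NAIP at 144 and BIRC7 at 78. Caspases were above in 5 of 10, CASP2 at 5128, CASP8 at 1108 and CASP6 at 1088, with CASP14, of skin, at 20.8. Of 9 HSP70 proteins 7 were above, led by the endoplasmic reticulum chaperone HSPA5 (23683), the mitochondrial HSPA9 (11586) and HSPA4 (3916), with the testis form HSPA1L at 31.3. HSP90AA1, HSP90AB1, HSP90B1 and TRAP1 read 38898, 29481, 11514 and 5899.8, all in the top 10% or above. BCL2, NAIP, CASP8, HSPA9 and TRAP1 had probe sets on both sides of the background level.

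Antioxidant families were bright in their ubiquitous members. PRDX1, PRDX2, PRDX3, PRDX6 and PRDX4 read 30181, 13745, 13404, 11426 and 11002. All 5 of these peroxiredoxins were in the top 10% or above. SOD1 read 22290.2, the mitochondrial SOD2 1061 and the secreted SOD3 43.9. Glutathione peroxidases were above in 3 of 7, GPX1 at 14070.4, GPX4 at 10898 and GPX8 at 2419, and GPX2, the gastrointestinal form, was near background at 15.8. Glutathione S-transferases were above in 12 of 16, led by GSTO1 (11600), GSTP1 (9265) and GSTO2 (5470.1), with GSTA3 at 5. Aldehyde dehydrogenases were above in 13 of 18, led by ALDH1A3 (7268), ALDH9A1 (5290.4) and ALDH7A1 (5067), while ALDH1A1 read 2.1. Aldo-keto reductases were above in 5 of 9, AKR7A2 at 4862, AKR7A3 at 551 and AKR1C1 at 283, with AKR1C4, of liver, at 13.4. ALDH1A3 and AKR1C1 had probe sets on both sides of the background level.

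Families with tissue-restricted or inducible members were mostly near background. Keratin-associated proteins of hair (33 genes), CC chemokines (20 genes) and UDP-glucuronosyltransferases (8 genes) had no member above it, the highest CC chemokine being CCL19 at 86.5 and the highest glucuronosyltransferase UGT1A6 at 29.1. Taste receptors had 1 of 20 above, TAS2R14 at 139, and Toll-like receptors 1 of 10, TLR3 at 131. Among GABA-A receptor subunits 2 of 15 were above, GABRD at 424 and GABRQ at 186. Crystallins were above in 5 of 18, the non-lens CRYBG3 (969.9), CRYBG1 (703) and CRYBG2 (221) leading and the lens gene CRYBB1 at 3.5. Aquaporins were above in 2 of 10, AQP3 at 993 and AQP1 at 103. TAS2R14, TLR3, GABRQ, CRYBG2 and AQP1 had probe sets on both sides of the background level.

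Among signalling and detoxifying families the shares above background were mostly under the 58% of all genes, and several had a member in the top 10%. Of 36 interleukins 6 were above, and IL18, which many epithelia store as a precursor, was in the top 10% at 3613, ahead of IL15 (491) and IL37 (126), with IL33 at 0.5. CXC chemokines were above in 4 of 14, with the membrane-bound CXCL16 at 1032, CXCL1 at 132, CXCL3 at 114 and CXCL11 at 3.4. Cytochromes P450 were above in 18 of 47, and CYP24A1, which breaks down active vitamin D, was in the top 10% at 3889, ahead of CYP2R1 (931) and CYP26B1 (613). ABC transporters were above in 21 of 42, led by ABCE1 (5054), a ribosome recycling factor, ABCD3 (4446) and ABCC1 (3424). Germ cell antigens of the MAGE families were near background with exceptions. In MAGE-A 2 of 7 were above, MAGEA6 at 7283 and MAGEA12 at 678, with MAGEA1 at 86.2 and MAGEA8 at 2. Among 16 other MAGE genes 5 were above, MAGEB2 at 8476, MAGED1, which is widely expressed, at 4149 and MAGEF1 at 1848, with MAGEB18 at 3. Probes of close MAGE-A copies can bind each other's transcripts, so the assignment to MAGEA6 is uncertain. IL37, CYP2R1 and CYP26B1 had probe sets on both sides of the background level.

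**Figure D4:**
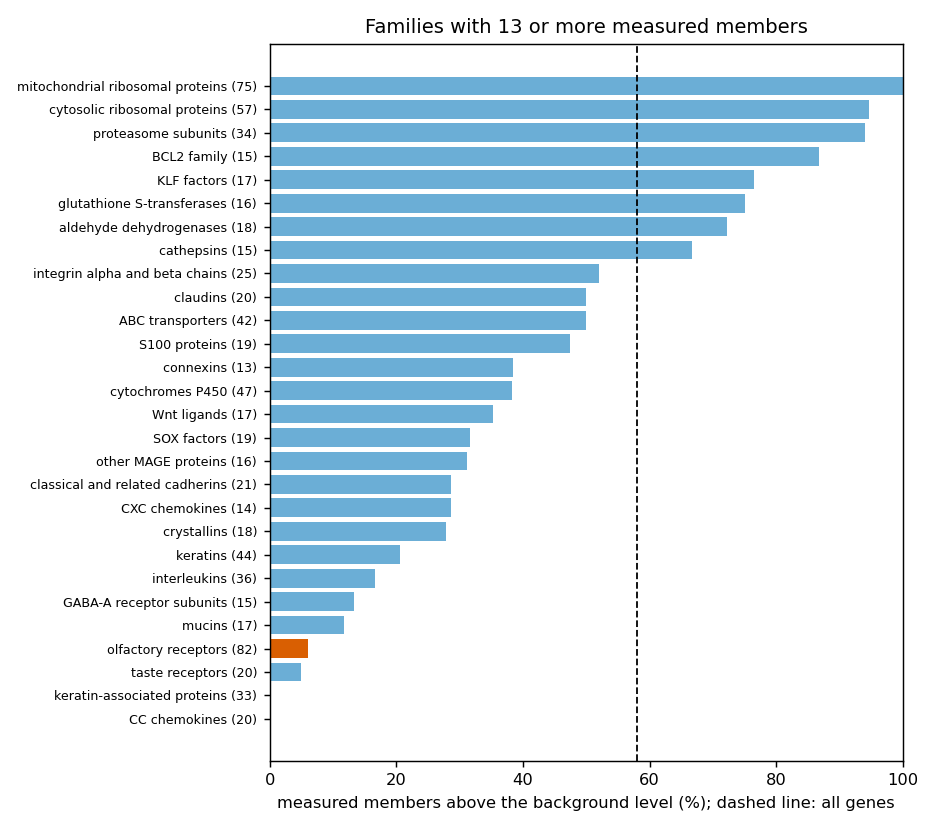
Percentage of measured members above the background level in each family of 13 or more measured genes (number in brackets) on the DMSO-treated SCD1-WT array, 1 bar per family, with the olfactory receptors that set the level in orange. The dashed line is the share of all genes, 58%, and the families run from 100% of 75 mitochondrial ribosomal proteins to 0 of 33 keratin-associated proteins.

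Across the 104 families with several measured members, 69 had members on both sides of the background level, 32 had every measured member above it and 3 had every one near it. In 47 families a member in the top 10% stood beside a member near background. With 58% of all genes above the level, groups of unrelated genes would often be divided too, and no expected count was computed. Examples picked from the divided families are LDHA against LDHC at 36041 and 80.4, and FABP5 against FABP2 at 14578 and 4. TCF7L2 against LEF1, at 18361 and 53.2, is another.

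The 19690 placed genes were also put in RefSeq order, and runs of neighbours all above or all near background were listed. Only some of the longest runs are given, and no expected run length was computed. The longest run of measured neighbours near background held 34 genes, from KRT40 to KRT13, and held mostly keratin-associated proteins and type I hair keratins. The next held 24 genes, from TMPRSS11E to JCHAIN, with the UGT2B enzymes, the caseins of milk and the salivary statherin and histatin genes. A run of 19 covered the protocadherin beta cluster, and another of 19 spanned CDH18, CDH12, CDH10, CDH9 and CDH6 on the same chromosome. On the other side, the longest run above background held 35 genes, from AK1 to LRRC8A, and the next 28, from TMT1B to NABP2, with CDK2, ERBB3 and RPL41 in it.

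Promoter sequence was compared with band, using the 300 bases from 250 before to 50 after the annotated start of 13454 protein-coding genes (RefSeq, GRCh38.p14). The median number of CG dinucleotides in that window was 10 for genes near background and 26 for low genes, and 27 for the intermediate, top 10% and top 1% bands. Over all of these genes the median was 23. Windows with 5 or fewer CG made up 36.7% of genes near background, 8.50% of low genes, 3.87% of intermediate genes and 2.53% of the top 1%, against 15.9% of all. Read the other way, 25.1% of 2139 genes with 5 or fewer CG were above background and 82.8% of 5971 genes with over 25. The motif GGGCGG, on either strand, was in 42.3% of windows near background and in 69.9% to 74.2% of those in the higher bands, against 62.2% of all, and since it contains a CG the 2 counts are not separate. TATAAA, on either strand, was in 14.8% of windows near background, 5.17% of low, 4.24% of intermediate, 6.09% of top 10% and 15.2% (24 of 158) of top 1% windows, against 8.28% of all. CCAAT, on either strand, was in 34.8% to 40.5% of windows by band, against 36.1% of all. These are descriptions of letters in a window, without a test, and no statement about a factor follows from them.

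**Figure D5:**
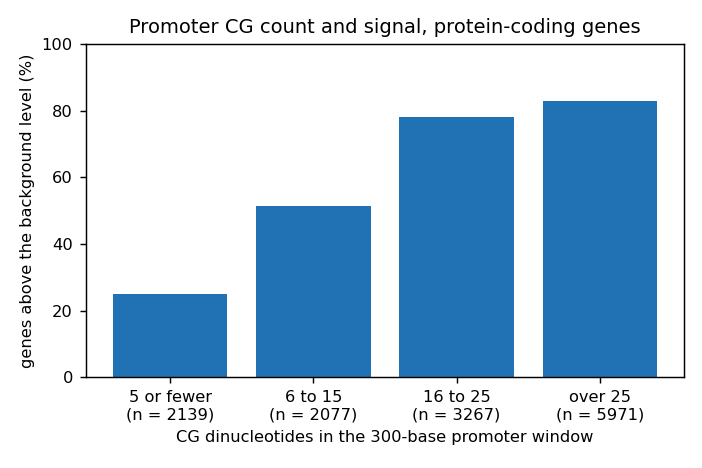
Percentage of protein-coding genes above the background level on the DMSO-treated SCD1-WT array (y axis) by the number of CG dinucleotides in the 300-base promoter window (x axis), with the number of genes under each bar. The share runs from 25.1% at 5 or fewer CG to 82.8% at over 25.

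The bright and dim paralogs of the lactate dehydrogenase and GAPDH families are shown as examples, with the promoter of a gene without CG there. The 250 bases before the start are printed for LDHA (chr11:18394313-18394562, plus strand) and its neighbour LDHC (chr11:18412068-18412317, plus strand), for GAPDH (chr12:6535014-6535263, plus strand) and GAPDHS (chr19:35533206-35533455, plus strand), and for SI (chr3:165078497-165078746, minus strand), whose signal of 0.9 was near the bottom. All are RefSeq sequence of GRCh38.p14, 5′ to 3′ on the gene's strand, with CG in capitals. LDHA has 22 CG in these bases and LDHC 17, GAPDH 22 and GAPDHS 15, and SI has 0. None of the 6 printed promoters, SCD included, holds TATAAA on either strand.
LDHA: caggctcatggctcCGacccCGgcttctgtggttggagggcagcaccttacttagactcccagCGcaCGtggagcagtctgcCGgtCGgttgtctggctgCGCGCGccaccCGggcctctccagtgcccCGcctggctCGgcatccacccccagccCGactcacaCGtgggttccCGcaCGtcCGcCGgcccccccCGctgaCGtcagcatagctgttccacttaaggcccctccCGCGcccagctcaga
LDHC: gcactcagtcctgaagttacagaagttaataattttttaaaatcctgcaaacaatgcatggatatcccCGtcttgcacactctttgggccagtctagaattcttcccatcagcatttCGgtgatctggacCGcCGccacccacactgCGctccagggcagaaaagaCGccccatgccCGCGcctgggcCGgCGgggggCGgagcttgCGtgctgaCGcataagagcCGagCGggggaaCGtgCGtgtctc
GAPDH: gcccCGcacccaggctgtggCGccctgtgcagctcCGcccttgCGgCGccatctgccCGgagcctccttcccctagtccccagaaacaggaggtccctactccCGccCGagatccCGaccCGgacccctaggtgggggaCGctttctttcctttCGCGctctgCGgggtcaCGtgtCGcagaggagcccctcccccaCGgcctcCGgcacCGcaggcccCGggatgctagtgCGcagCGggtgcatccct
GAPDHS: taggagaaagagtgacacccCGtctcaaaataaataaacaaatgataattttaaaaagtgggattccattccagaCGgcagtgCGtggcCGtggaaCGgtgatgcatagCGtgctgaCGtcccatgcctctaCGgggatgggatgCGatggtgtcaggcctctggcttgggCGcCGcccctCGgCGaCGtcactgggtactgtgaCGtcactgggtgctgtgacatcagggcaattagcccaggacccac
SI: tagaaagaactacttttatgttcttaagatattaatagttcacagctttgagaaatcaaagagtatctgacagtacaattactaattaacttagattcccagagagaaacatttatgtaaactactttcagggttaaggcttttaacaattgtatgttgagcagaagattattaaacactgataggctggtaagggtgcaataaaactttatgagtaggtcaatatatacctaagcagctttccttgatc
The pairs LDHA at 36041 with LDHC at 80.4, and GAPDH at 37864 with GAPDHS at 13.8, lay on opposite sides of the background level. In both pairs the bright member has more CG in these bases. The pairs were chosen after their values were seen, and paralogs of other divided families were not compared. All 4 windows hold CG, and SI combines a window without CG and a signal near background.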

How the data were processed

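RNA of 3 HCT-116 samples had been hybridised to 1 Affymetrix array each, and the SCD1-WT sample with DMSO for 24 h was analysed here. The deposited table holds 1 intensity, not log-transformed, for each probe set and array. MAS5 is the tool that the submitters' processing notes list. Sources used here name no version of it. Detection calls of that method were not used here. Of 54675 probe sets, 62 control sets, 1801 sets naming several genes and 11721 sets not listed in the platform annotation were left out. The remaining 41091 sets gave 19775 genes, and 41037 of them matched RefSeq (GRCh38.p14) by gene ID.

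Each gene took its brightest probe set. No further scaling, filter or test was applied, because each condition had 1 array. Named genes were SCD, FASN, ACACA, AMPK, MTOR, RPS6KB1, MAP1LC3B, SQSTM1 and their paralogs, the 25 highest genes, every member of lists with up to 6 measured genes, otherwise the 3 highest and the lowest where near background, and markers of other cell types in the top 10%. Other named genes were chosen after their values were seen, as were the printed promoters. Members and lists were chosen with earlier results of these data known. Levels of 35 genes are not listed, and some further genes are not reported here.

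Promoter sequences, gene order and names came from RefSeq, and no genome build is stated for the array values. For genes with several promoter windows (3728) the first listed was used. Alternatives changed the rule for combining probe sets and the background level. The banding steps were run on simulated data in which expressed genes were set far above silent ones. That run cannot show how well genes close to the background level are called. Python 3.11.15, numpy 2.4.6, pandas 2.3.3 and matplotlib 3.10.9 were used. The number of arrays limits the precision.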

Additional observations from a re-analysis of the deposited data

Results flagged for a closer look

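Probe sets that the platform annotation used here did not list carried signal outside all gene results. Of 11721 such probe sets, 18.5% (2172) read above the background level of 96.4, and 162 lay in the range of the top 10% of genes. Among probe sets named for 1 gene the share above the level was 50.7%, and among the 1801 sets that name several genes 57.0%. They were singled out because no result for a gene uses them, and what they detect was not tested.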

How the results depend on the processing

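The count of genes above background (11468) ranged from 9153 to 12369 of 19775 with other background levels or the median of a gene's probe sets. It was 8655 of 17098 without probe sets marked as matching several transcripts, and 7044 when every probe set of a gene had to be above, an alternative chosen after seeing the data. Epithelial and intestinal markers above background (15 of 64) became 7 of 52 measured without probe sets marked as matching several transcripts, by whose construction fewer genes are tested. Markers of other cell types (17 of 78) became 10 with the median of the probe sets, 11 of 68 without the sets matching several transcripts, 11 with the 99th percentile of the olfactory receptor genes as level, and 6 with every set above. Why the marker counts moved beyond that was not tested. Families on both sides of the level ranged from 68 to 86 around 69. A level set without the OR51B genes, also chosen after seeing the data, was 72.2 in place of 96.4. It put 21 of 64 epithelial and intestinal markers and 22 of 78 markers of other cell types above. With the 90th percentile of the olfactory receptor genes as level, 70.7, these counts were 21 and 24. The near-background calls of markers between these levels and 96.4, such as VIL1 and LGALS4, thus depend on the level chosen. Of 466 genes taken by the naming rule, 51 became near background with the median, and 26 of 359 without the sets matching several transcripts. The brightest probe set favours genes with many sets. No paired analysis was possible because each condition had 1 array and the labels carry no replicate numbers.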

Other observations

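An embryonic globin gene was bright in these cells, as was seen after its values were looked at. HBE1, the epsilon globin of the early embryo, read 11809 on the DMSO array, in the top 10% of all genes, through 1 probe set, and its second set read 10.3. The brighter set read 11647 on the array of inhibitor-treated cells and 4256 on the SCD1-KO array. Its measured globin neighbours did not share the band, with HBB at 176 and HBD at 64.6. The pseudogene HBBP1 read 50.3 and the non-coding BGLT3 65.1. Globin genes of this cluster without a value here are not covered by that statement. The next measured genes on the other side were the olfactory receptors OR51B4 at 748, OR51B2 at 168 and OR51B5 at 134, which hold 3 of the 5 olfactory receptor signals above the background level. Beyond them OR51B6, OR51M1, OR51I1 and OR51I2 were near background at 75.5, 13.5, 81.5 and 29.6. The other 2 receptors above the level were OR1I1 at 134 and OR3A3 at 97.2. Markers of red cell precursors were near background, with HBZ, the other embryonic globin, at 2.8, ALAS2 at 30.4, AHSP at 89.2, KLF1 at 50.2 and EPB42 at 43.4.

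Long non-coding RNAs were mostly near background, and 12 of 2656 reached the top 10%, against 10% of all genes. These 12 were named after their values were seen. ZFAS1, a host of small nucleolar RNAs, was in the top 1% at 23912, and NORAD and MALAT1 read 14791 and 13803. The small nucleolar RNA hosts SNHG32 and SNHG19 read 9745 and 5236. CHASERR, OIP5-AS1, UCA1, DANCR, FGD5-AS1, EPB41L4A-AS1 and MIR100HG read 5196, 5017, 4481, 4465, 4336, 3939 and 3380. CHASERR, FGD5-AS1 and MIR100HG had probe sets on both sides of the background level.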
